A study of Ovis aries with 12 samples.

Results

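The change of the oviduct isthmus over the oestrous cycle was examined in 12 of the 12 libraries of the series, 6 from the follicular phase (MF1 to MF3 and wF1 to wF3) and 6 from the luteal phase (ML1 to ML3 and wL1 to wL3). The libraries were assigned by their labels alone, and no measured value was used to choose them. The question was which transcripts differed between the phases in the same direction in both FecB genotypes, so the genotype was kept as a stratum. Each library came from bulk isthmus tissue of a Small-Tailed Han (STH) ewe of 2.5 ± 0.5 years, and there were 3 ewes per group. MF and ML ewes were FecB BB, carrying the mutation of the BMP receptor gene BMPR1B on both chromosomes, and wF and wL ewes were FecB ++, the wild type. All 12 ewes, the luteal ones included, had worn a vaginal progesterone device (CIDR, 300 mg) for 12 days. MF and wF tissue was taken 45 to 48 hours after the device came out, and ML and wL tissue on day 9. No ewe without the device is among them, and the phase of each ewe is that of its label.

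The isthmus is the narrow, thick-walled part of the oviduct next to the uterus, where a folded epithelium of ciliated and secretory cells lies on stroma and a coat of smooth muscle. Oestrogen from the growing follicle acts on it before ovulation, when sperm are held there, and progesterone from the corpus luteum acts on it afterwards, when the embryo passes. Oestrogen is known to raise cell division and secretion in the oviduct epithelium of ruminants, and progesterone to oppose both. In bulk tissue, fewer cells of a type cannot be told apart from less RNA per cell.

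The values are FPKM, fragments scaled to transcript length and to the number of mapped fragments of the library, so levels can be compared between genes. The table held 63643 transcripts, 43674 with a RefSeq accession or gene identifier and 19969 long noncoding RNAs (lncRNAs) assembled by the authors. The FPKM of a library summed to 409016 to 456531 in the follicular phase and 349733 to 421341 in the luteal phase, with a mean difference of 53542 (exact permutation test with phases exchanged within genotype, 2-sided, p = 0.01). The 10 most abundant transcripts took 13.7% of the sum on average in the follicular and 8.91% in the luteal phase (exact permutation test, p = 0.025). The share of lncRNAs (p = 0.23) and of transcripts listed at 0 (p = 0.645) gave no difference in the same exact test.

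Of the 12 libraries, 4 stood apart in their cell type markers, and 3 of them were luteal. The 8 ciliated cell markers paired with a gene summed to 12.9 to 162 FPKM in ML2, ML3, wF2 and wL2 and to 291 to 589 in the other 8 libraries. The 4 epithelial markers (EPCAM, KRT8, CLDN3 and CLDN7) summed to 157 to 424 in those 4 libraries and to 584 to 934 in the others. The 9 smooth muscle markers went the other way, 3690 to 7389 against 502 to 2209. Epithelial and ciliated cell markers were thus detected in every library, at a low level in 4, and no marker of these 3 lists was at 0 in all libraries. Of 6 red blood cell markers 3 were paired with a gene, and these summed to at most 0.777 FPKM in any library. Of 9 markers of ovarian follicle or luteal tissue 8 were paired, and they summed to 2.62 to 14.7. The smooth muscle score, the mean log2 level of its 9 markers, was 6.76 in the follicular and 7.23 in the luteal phase and gave p = 0.575 in the exact permutation test. Counts are given below with and without ML2, ML3, wF2 and wL2 where they rest on them, and the part of tissue makeup in the phase differences was not tested.

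**Figure D1:**
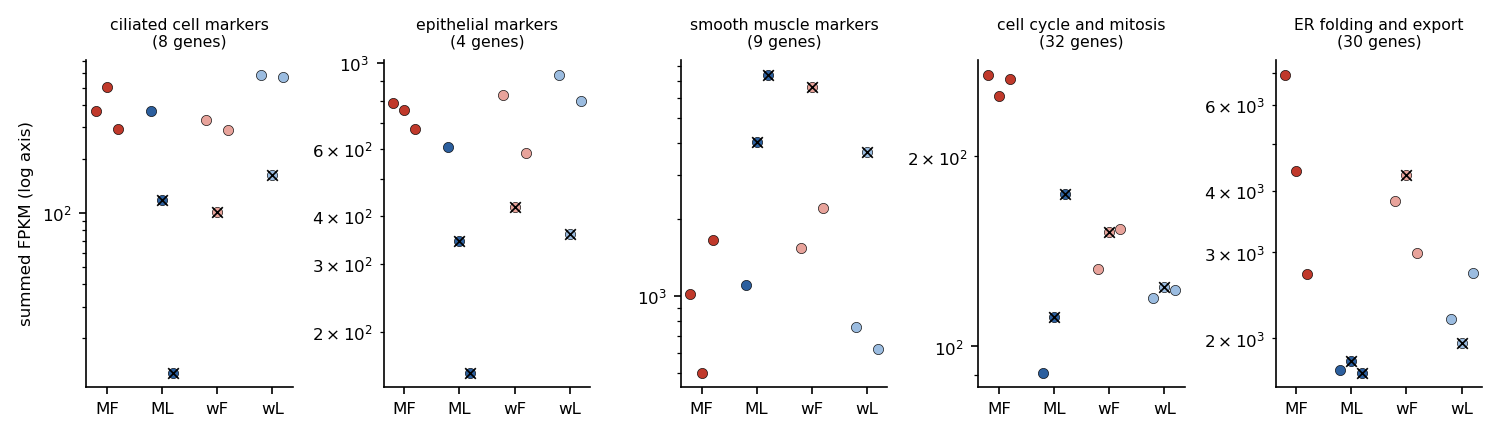
Summed FPKM (log axis) of 3 marker lists and of the cell cycle and endoplasmic reticulum (ER) lists in each library, by group, with crosses on ML2, ML3, wF2 and wL2. The crossed libraries are lowest in the ciliated and epithelial panels and highest in the smooth muscle panel, whereas the 3 MF libraries lead the cell cycle panel (250 to 269) and no follicular library is below 2709 in the ER panel.

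A phase difference common to both genotypes was visible in the second principal component of the 8676 tested gene sums (a gene sum adds the FPKM of the transcripts paired with a gene). Component 2 held 13.0% of the variance, and its scores ran from 6.82 to 48.9 in the 6 follicular libraries and from -53.4 to 2.02 in the 6 luteal libraries. The phases did not overlap, and the exact permutation test gave p = 0.005, the smallest value 400 arrangements allow (adjusted p = 0.025 over 5 components). Component 1 held 36.7% and did not follow the phase (exact permutation test, p = 0.275). Its lowest scores belonged to the 4 libraries with few epithelial markers.

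**Figure D2:**
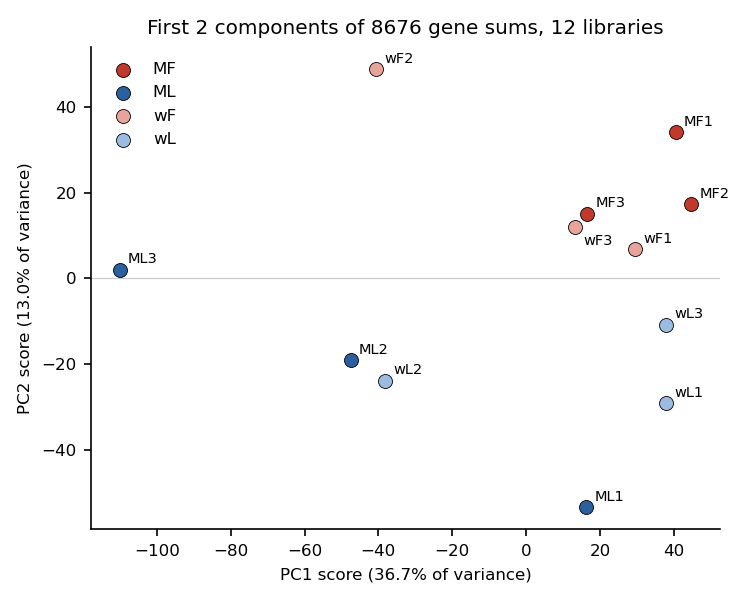
Scores of the 12 libraries on the first 2 principal components of 8676 gene sums (axes: score, with the percent of variance). Every follicular library lies above every luteal library on component 2 (6.82 to 48.9 against -53.4 to 2.02), and wF2, ML2, ML3 and wL2 lie to the left on component 1.

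In limma's test on log2(FPKM + 0.1), 74 gene sums were called at an adjusted p under 0.05 and a pooled log2 change of at least 1 (0.853% of 8676). Of these, 60 were higher in the follicular phase (0.692% of the genes tested) and 14 were lower (0.161%). Log2 changes are on that scale throughout, follicular minus luteal, and understate the change of genes with low FPKM. Unadjusted p was under 0.05 for 1739 genes (9.26% of those tested on the higher and 10.8% on the lower side), where 433.8 would be expected by chance, and the smallest adjusted p was 0.00571. The last gene inside the threshold was TOP2A (adjusted p = 0.0483, log2 2.29) and the first outside was NDUFAF2 (adjusted p = 0.0503, log2 1.05). The count rested on single libraries: 5 genes were called without MF2 (TAC3, ATOX1, BUB1, PDIA5 and LOC101118999) and 102 without ML3, and 102 without ML2, ML3, wF2 and wL2, of which 32 were among the 74. Rescaling all libraries to the same FPKM sum moved the median log2 change of all genes from -0.04 to -0.22 and gave 172 calls, 78 higher and 94 lower. All 74 genes kept their direction under each of the 23 alternative settings in which they were tested. These settings reuse the libraries in which the genes were chosen.

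In 73 of the 74 the change had the same sign in MF against ML and in wF against wL, and in 48 it reached 1 log2 in each. The call averages both genotypes and asks for a log2 change of at least 1, which favours one sign, so this count and those for transcripts below are a description of the genes chosen. The change was larger in BB in 66, with a median size of 2.16 in BB and 1.33 in ++. A difference between the genotypes had an unadjusted p under 0.05 for 22 of the 74 and was called for 1, BUB1. Taken alone, MF against ML called 150 gene sums and wF against wL called 0, with 763 at an unadjusted p under 0.05, and limma was the only tool run. The libraries that stood apart in their cell type markers were ML2 and ML3 but no MF library in BB, and wF2 and wL2 in ++. MF against ML called 1 gene sum with the smooth muscle score as covariate and 1 without MF2. The part of tissue makeup in the larger change of BB was not tested. Over all tested genes the 2 changes shared a sign in 52.0% of cases (Pearson r = 0.07 and Spearman rho = 0.05, a description over 8676 genes measured in the same libraries).

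Without a model, the 6 follicular and 6 luteal libraries did not overlap for 75 genes in the higher direction (0.864% of those tested) and for 158 in the lower direction (1.82%). Follicular and luteal libraries were separated within BB and within ++ in the same direction for 145 genes higher in the follicular phase (1.67%) and 227 lower (2.62%), and in opposite directions for 77. Among the 74 called genes, 27 of the 60 higher and 9 of the 14 lower ones had phases that did not overlap.

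**Figure D3:**
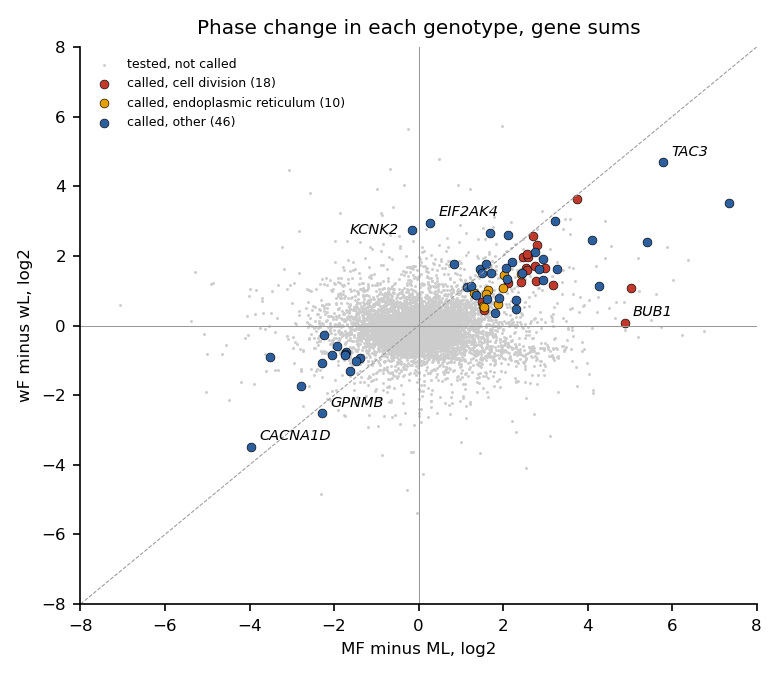
Log2 change of each of 8676 gene sums in FecB BB (x axis, MF minus ML) and FecB ++ (y axis, wF minus wL), with the 74 called genes in colour by group and the dashed line marking equal change. The called genes lie in the upper right and, for the 14 lower ones, the lower left, except KCNK2 just left of the vertical axis (-0.14 in BB and 2.75 in ++), and 66 of the 74 changed more in BB. BUB1 and EIF2AK4 also lie near an axis.

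The naming rule for genes, transcripts and lncRNAs asked for separate phases, so the separation of those it chose is a condition and no result. TAC3, which encodes the precursor of the tachykinin neurokinin B, had the largest pooled change among the called genes with a gene name. Its FPKM was 12.9, 6.46 and 7.32 in MF, 15.2, 4.82 and 8.96 in wF, 0.00543, 0.0857 and 0.0980 in ML and 0.0494, 0.0802 and 1.37 in wL. All follicular libraries were above all luteal ones, and wL3 was the highest luteal library. The pooled log2 change was 5.23 (SE 0.57, limma adjusted p = 0.00571), 5.77 in BB and 4.69 in ++, and it stayed called in all 23 alternative settings. Both TAC3 transcripts moved in this direction (XM_004006562.3 by 5.41 and XM_015094789.1 by 3.40). The related precursor TAC1, which gives rise to substance P, had a log2 change of -2.17 (adjusted p = 0.067), and the receptors TACR1 (1.54) and TACR3 (1.10) were not called.

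SLPI, a protease inhibitor secreted onto mucosal surfaces, was 2.32 to 8.56 FPKM in the follicular phase (median 3.44) and 0 to 1.29 in the luteal phase (median 0.429), listed at 0 in ML1 and ML3. The phases did not overlap, and the log2 change was 3.28 (SE 0.67, limma adjusted p = 0.0469). SLPI missed the threshold in 15 of its 23 alternatives, with adjusted p between 0.0155 and 0.114. CNTNAP4, a membrane protein of the neurexin superfamily, was 2.72 to 8.31 FPKM (median 4.57) against 0.423 to 1.88 (median 0.677), a log2 change of 2.43 (SE 0.35, limma adjusted p = 0.018). MAP1LC3C, an LC3 protein of the autophagosome membrane, was 5.36 to 14.4 FPKM (median 12.9) against 1.15 to 4.16 (median 1.87), a log2 change of 2.23 (SE 0.37, limma adjusted p = 0.0302). MF libraries of MAP1LC3C lay within 12.8 to 14.4, and wF3 (13.1) was among them while wF1 and wF2 were at 5.64 and 5.36.

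GALNT5, which starts mucin-type O-glycosylation, rose from a luteal median of 0.212 FPKM (0.0777 to 0.274) to a follicular median of 1.03 (0.760 to 1.66), a log2 change of 2.01. NUCB2, the calcium-binding precursor of nesfatin-1, was 36.7 to 129 FPKM (median 67.7) in the follicular and 9.95 to 30.8 (median 14.6) in the luteal phase, a log2 change of 1.98. MCCD1 was 0.751 to 1.66 FPKM against 0.147 to 0.423, a log2 change of 1.86. None of these 3 overlapped between the phases, and their limma adjusted p were 0.0214 (GALNT5), 0.0369 (NUCB2) and 0.018 (MCCD1).

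**Figure D4:**
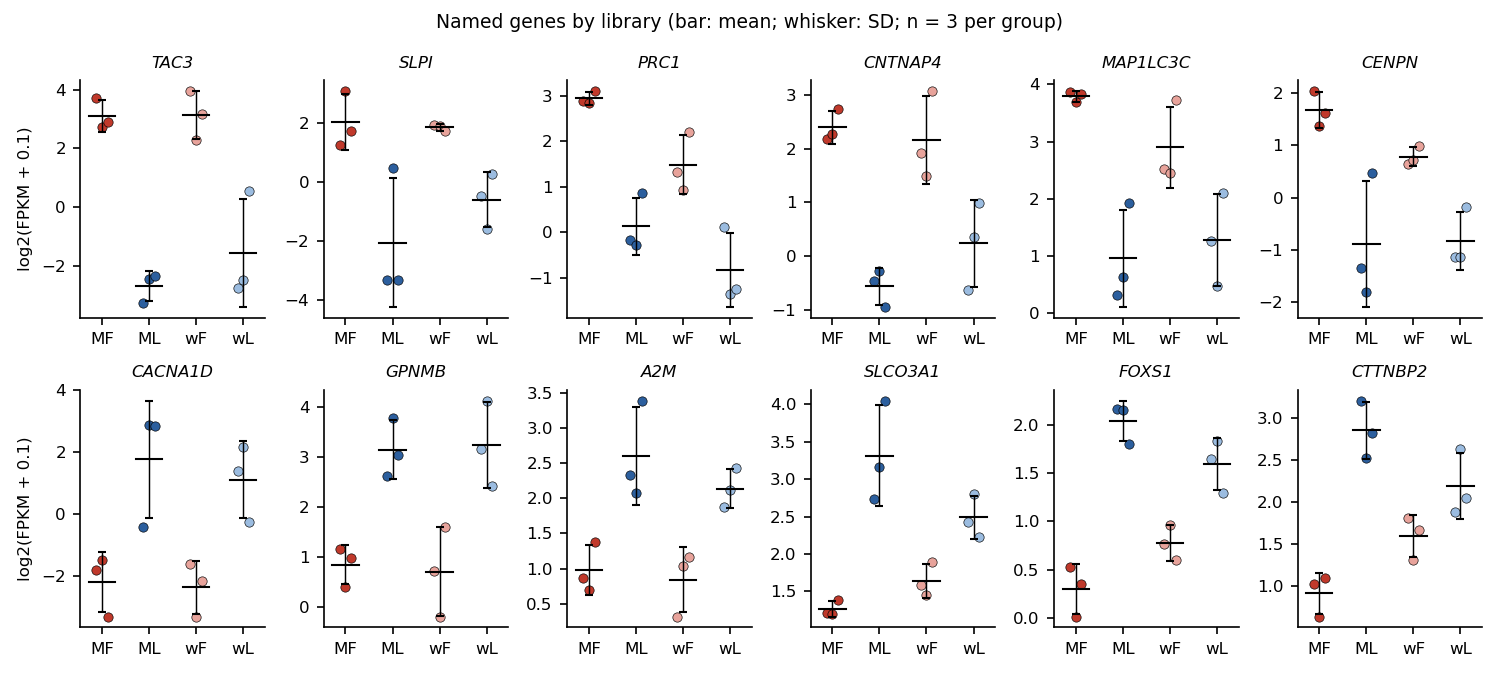
Log2(FPKM + 0.1) of 6 genes higher (top) and 6 genes lower (bottom) in the follicular phase, each point a library, with mean and SD per group (n = 3). By the rule that chose these genes, the 6 follicular points (MF, wF) are separated from the 6 luteal points (ML, wL) in every panel. TAC3 was 4.82 to 15.2 FPKM against 0.00543 to 1.37, and CACNA1D was 0 to 0.257 against 0.637 to 7.27.

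The lower genes were headed by CACNA1D, the pore-forming subunit of the L-type calcium channel Cav1.3. It was 0.186, 0.257 and 0 FPKM in MF, 0.223, 0 and 0.121 in wF, 0.637, 7.27 and 6.98 in ML and 2.52, 4.39 and 0.737 in wL. All luteal libraries exceeded all follicular ones, although ML1 and wL3 were close to the follicular level. The highest values were those of ML2, ML3 and wL2, the luteal libraries high in smooth muscle markers. The follicular library high in these markers, wF2, was at 0. The part of tissue makeup in the change of CACNA1D was not tested. The log2 change was -3.72 (SE 0.69, limma adjusted p = 0.039), -3.96 in BB and -3.48 in ++, and it missed the threshold in 14 of 23 alternatives (adjusted p up to 0.16).

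GPNMB, a transmembrane glycoprotein, fell from a luteal median of 8.42 FPKM (5.24 to 17.3) to a follicular median of 1.70 (0.776 to 2.93), with nearly equal log2 changes of -2.29 in BB and -2.52 in ++ (pooled SE 0.38, limma adjusted p = 0.0276). A2M, a broad inhibitor of proteases, fell from 3.57 to 10.4 FPKM (median 4.56) to 1.15 to 2.49 (median 1.85), a log2 change of -1.45 (SE 0.27, limma adjusted p = 0.039). GPNMB is also a gene of macrophages, and the leukocyte markers summed to 22.3 to 51.4 FPKM in the follicular and 33.7 to 64.0 in the luteal phase. Of the 12 leukocyte markers tested 0 passed and 10 had a negative change (median -0.26), and their part in the change of GPNMB was not tested.

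SLCO3A1, an organic anion transporter, was 2.20 to 3.63 FPKM in the follicular and 4.60 to 16.5 in the luteal phase (log2 -1.45). FOXS1, a forkhead factor, was 0.910 to 1.85 against 2.36 to 4.40 (log2 -1.28), and CTTNBP2, a cortactin-binding protein, was 1.45 to 3.40 against 3.57 to 9.13 (log2 -1.27). The phases of these genes were separate, and the gap was narrowest for CTTNBP2. BCL2, which blocks apoptosis, was 2.84 to 4.25 FPKM against 4.77 to 17.0 (log2 -1.23), and ELMO1, a partner of DOCK proteins in RAC activation, was 2.31 to 3.51 against 4.04 to 11.9 (log2 -1.17). DDX42, an RNA helicase, passed the adjusted p (0.017) with a change of -0.70 and was therefore not called, with 13.2 to 16.1 FPKM against 21.0 to 29.3. Of 23 alternatives ELMO1 missed the threshold in 16, A2M and HLF in 12 each and BCL2 in 11. Without ML2, ML3, wF2 and wL2, 1 of the 14 lower genes (CTTNBP2) and 31 of the 60 higher ones were called, while all 74 kept their direction and an unadjusted p under 0.05. The 74 were chosen in these same libraries, and ML1 is then the only ML library, so this is no separate support for them. In that setting the 14 lower genes had log2 changes of -2.12 to -1.01. None of the 14 was called without MF2, wL1 or wL2 alone.

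A group of cell division genes, made after the values were seen, holds 18 of the 60 higher genes, with log2 changes of 1.01 to 3.69 (median 2.23, 2.65 in BB and 1.62 in ++). They include the mitotic kinesins KIFC1, KIF4A and KIF20A, the kinases NEK2, AURKA and PBK, BUB1 and MAD2L1 of the spindle checkpoint, BIRC5 of the chromosomal passenger complex, the ubiquitin ligase component UBE2C, and TOP2A and RRM2 of DNA replication. Follicular and luteal libraries were separate in BB for all 18 and in ++ for 14, but over all 12 libraries for 3 (PRC1, CENPN and PBK). Of all genes tested, 1.67% were separate in this direction within both genotypes and 0.864% over all 12 libraries. The counts for the group describe genes already chosen as called.

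PRC1, which bundles the microtubules of the central spindle, was 7.28, 7.10 and 8.56 FPKM in MF, 2.42, 1.81 and 4.51 in wF, 0.790, 0.721 and 1.71 in ML and 0.984, 0.292 and 0.322 in wL. MF exceeded wF, and the lowest follicular library (wF2) was just above the highest luteal library (ML3). Its log2 change was 2.56 (SE 0.35, limma adjusted p = 0.0164), 2.81 in BB and 2.32 in ++. CENPN, a centromere protein, was 1.46 to 4.0 FPKM against 0.188 to 1.28 (log2 2.08), and PBK 1.78 to 5.04 against 0.479 to 1.74 (log2 1.83). KIF4A was listed at 0 in all 6 luteal libraries and also in wF2 and wF3, and KIFC1 was listed at 0 in ML1, ML2, wL1 and wL2. TOP2A, at 17.6 to 24.3 FPKM in MF and 4.18 to 10.4 in wF, stood at 12.0 in ML3 and at 1.19 to 1.95 in the other luteal libraries, so ML3 alone reached the follicular range.

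A list of 45 cell cycle and mitosis genes shares members with this group, among them BUB1, PRC1, MAD2L1 and KIF20A. It was written with earlier results of these data known, so it is no independent support for the group. Of 32 tested members, 9 passed the adjusted p in the higher direction and 0 in the lower, beside 0.98% and 0.496% of all genes tested. The change was positive in 31 of 32 (46.6% over all genes tested) and in both genotypes in 27, with a median log2 of 1.52 (1.87 in BB and 1.02 in ++) beside -0.04 over all genes (0.06 in BB and -0.12 in ++). The smallest changes belonged to the replication genes MCM6 (-0.19), RRM1 (0.11) and MCM3 (0.16), and the mitotic kinase PLK1 (0.34) was also near 0. Summed over the list, the level was 250 to 269 FPKM in MF, 133 to 154 in wF, 90.9 to 175 in ML and 119 to 124 in wL. The phases were separate within each genotype, and ML3 (175) lay above all wF libraries. Without ML2, ML3, wF2 and wL2, 17 members passed and the median was 1.91, and with a value of 1 added to the FPKM in place of 0.1 the median was 0.84. The number passing fell to 1 without MF2.

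**Figure D5:**
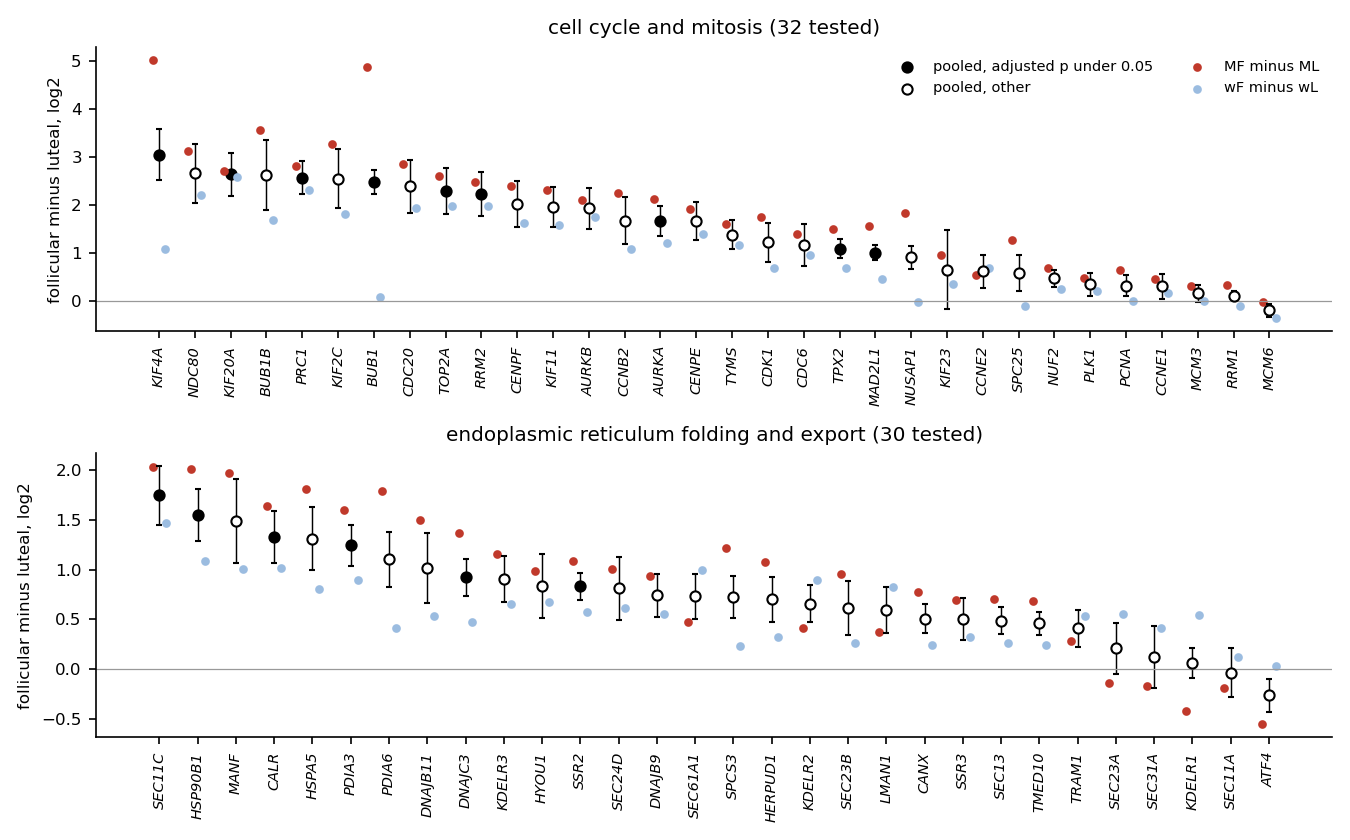
Pooled log2 change (follicular minus luteal, bars 1 SE) of the 32 cell cycle genes and the 30 ER genes tested, filled where the adjusted p was under 0.05, with the changes in BB (red) and ++ (blue) beside them. Of the cell cycle genes 31 of 32 and of the ER genes 28 of 30 lie above 0, 9 and 6 are filled, and the red points mostly exceed the blue ones.

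The 10 called genes of protein folding and export in the ER, grouped after the values were seen, rose by 1.04 to 1.96 log2 (median 1.25, 1.62 in BB and 0.91 in ++), and the phases were separate over all 12 libraries for 7 (0.864% of all genes in this direction), a count that describes genes already chosen as called. PDIA5, a protein disulphide isomerase, was 46.2, 39.1 and 22.7 FPKM in MF, 28.9, 22.7 and 33.0 in wF, 6.17, 5.82 and 7.03 in ML and 8.77, 7.34 and 14.9 in wL. No luteal library reached the follicular range, with wL3 the highest luteal value. Its log2 change was 1.96 (SE 0.22, limma adjusted p = 0.00644), and it was called in all 23 alternatives.

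The chaperone HSP90B1 was 312 to 1025 FPKM in the follicular and 112 to 249 in the luteal phase (log2 1.55, SE 0.26, limma adjusted p = 0.0315). SEC11C, a catalytic subunit of the signal peptidase, was 34.7 to 115 FPKM against 15.9 to 33.6 (log2 1.75, SE 0.30, limma adjusted p = 0.0315). PDIA3, a disulphide isomerase of glycoprotein folding, was 297 to 750 FPKM against 154 to 274 (log2 1.24, SE 0.21, limma adjusted p = 0.0315). None of the 3 overlapped between the phases, and MF1 was the highest library for each. CALR, a lectin chaperone (log2 1.33), and PPIB, a cyclophilin (log2 1.12), also had separate phases. Of the oligosaccharyltransferase, which attaches N-glycans, 8 of 12 subunits could be tested, all 8 had a positive change in both genotypes (median 1.0), and DDOST, DAD1 and MAGT1 passed (0.98% of all genes passed in this direction). Without ML2, ML3, wF2 and wL2 none of the 8 passed, with 6 at an unadjusted p under 0.05 and a median of 0.99. This subunit list was written after the values were seen.

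Of the 49 genes on the ER folding and export list, 30 could be tested, 6 passed in the higher direction and 0 in the lower, beside 0.98% and 0.496% of all genes. They were SEC11C, HSP90B1, CALR and PDIA3, and with changes under 1 log2 SSR2 of the translocon (0.83) and the co-chaperone DNAJC3 (0.92). The change was positive in 28 of 30 (46.6% over all genes) and in both genotypes in 25, with a median log2 of 0.73. The summed level was 2709 to 6932 FPKM in the follicular and 1703 to 2723 in the luteal phase, and wL3 alone among the luteal libraries reached the lowest follicular one (MF3). Without ML2, ML3, wF2 and wL2 the number passing was 0, with 13 members at an unadjusted p under 0.05 and a median of 0.64, and without MF2 it was also 0.

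Of 11 tested secretory genes, SLPI rose, A2M fell and 9 did not pass, with a median log2 of 0.70. Of all genes tested, 0.98% passed in the higher and 0.496% in the lower direction. AGR2, a disulphide isomerase of mucus-secreting cells, was 48.0 to 207 FPKM in the follicular and 0.529 to 31.7 in the luteal phase, without overlap, yet its gene sum missed the threshold (log2 3.42, SE 0.81, limma adjusted p = 0.066). SPP1, osteopontin, was 131 to 3031 FPKM against 2.31 to 1437 (log2 4.08, SE 1.80, limma adjusted p = 0.241). The phases overlapped widely for SPP1, and its lowest values were in the 4 libraries low in epithelial markers, ML2, wL2, ML3 and wF2. LOC101109935, chosen after its values were seen because its symbol kept it out of the rule, is named PA2GX in the study's annotation, the group X secreted phospholipase A2. It was 424, 826 and 749 FPKM in MF, 380, 357 and 1002 in wF, 11.7, 9.09 and 0.461 in ML and 33.0, 26.1 and 105 in wL. The phases did not overlap (log2 5.43, SE 0.73, limma adjusted p = 0.0164), more so in BB (7.35) than in ++ (3.52), with an unadjusted p of 0.0241 for that difference.

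Several other called genes outside these groups were abundant. ATOX1, a copper chaperone, was 77.4 to 126 FPKM in the follicular and 19.8 to 39.8 in the luteal phase (log2 1.61, SE 0.17, limma adjusted p = 0.00571), with like changes in BB (1.72) and ++ (1.50). CDO1, which oxidises cysteine, was 257 to 532 FPKM against 12.0 to 340, where wL3 (340) alone reached the follicular range (log2 2.71, 4.26 in BB and 1.15 in ++). SERPINF1, the secreted pigment epithelium-derived factor, was 34.0 to 94.5 FPKM against 12.0 to 27.5 (log2 1.67). Its change was not larger in BB (1.59) than in ++ (1.76). KCNG1, a modulatory potassium channel subunit (log2 -2.22), and OPRL1, the nociceptin receptor (log2 -2.25), were lower with overlapping phases. RAN, a GTPase of nuclear transport and spindle assembly, was 9.32 to 43.2 FPKM against 1.02 to 10.9 (log2 3.11) on a single transcript of a gene with processed copies in other mammals, so its level is uncertain.

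Of 21 circadian clock genes, 14 were tested and 2 passed in the lower direction, HLF and CRY2, beside 0.496% of all genes. HLF, a PAR bZIP factor of clock output, was 1.63 to 3.49 FPKM in the follicular and 3.59 to 9.00 in the luteal phase (log2 -1.25, SE 0.24, limma adjusted p = 0.039). CRY2, a repressor of the clock, was 4.31 to 6.91 FPKM against 7.55 to 10.9 (log2 -0.75, SE 0.15, limma adjusted p = 0.0468). Both were separate between the phases, and the related TEF (-0.62, adjusted p = 0.0586) and DBP (-0.89, adjusted p = 0.163) did not pass. The change was negative in 11 of 14 (53.4% over all genes) and in both genotypes in 10, with a median of -0.51, and the summed level was 77.0 to 99.4 FPKM against 112 to 246. Without ML2, ML3, wF2 and wL2 none of the 14 passed, with 5 at an unadjusted p under 0.05.

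Other lists gave few or no calls. Of 11 steroid receptor and chaperone genes none passed, and PGR, the progesterone receptor, was 38.5 to 208 FPKM in the follicular and 27.0 to 72.5 in the luteal phase (log2 0.94, SE 0.34, limma adjusted p = 0.167; 0.42 in BB and 1.46 in ++). None of 13 oestrogen-induced, 9 progesterone-induced, 26 TGF-beta and BMP, 11 insulin-like growth factor, 12 ion and water transport or 23 matrix genes passed, with medians of 0.27, -0.33, -0.27, -0.20, 0.05 and 0.18. Unadjusted p was under 0.05 for 3, 3, 5, 3, 3 and 3 of the members of these lists. Over the 23 alternatives the medians changed sign in 2, 0, 0, 4, 11 and 1, in the same order. The 2 last did so when all libraries were rescaled to the same FPKM sum. Of the contraction list, with prostaglandin, oxytocin, endothelin and adrenergic genes, 1 of 26 passed and it was TAC3 (0.98% of all genes passed in this direction). Genes of cholesterol synthesis and lipid handling were mostly positive (15 of 21, median 0.53) with 0 passing, as in HMGCS1 (log2 1.31, adjusted p = 0.165). Cytoplasmic ribosomal protein genes were positive in 31 of 32 with 0 passing and a median of 0.23, which was -0.04 after quantile normalization.

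In 22 of the 33 lists the medians had opposite signs in the genotypes, and the difference was not tested for a list. Of the 21 ciliary axoneme genes tested 0 passed, and their median was 2.40 in BB and -0.89 in ++. Without ML2, ML3, wF2 and wL2 it was -0.08 and -0.96, and with the smooth muscle score as covariate 0.32 and 0.39. Smooth muscle markers had medians of -1.87 and 0.99, or -0.58 and 1.16 without those 4 libraries, of which ML2 and ML3 are 2 of the 3 ML libraries. The 13 mitochondrially encoded genes had medians of -1.45 and 0.81, or -1.85 and 0.72 without them. Of the multiciliated cell regulators, 1 of 6 passed, CDC20B, beside 0.98% of all genes in this direction. CDC20B, from the locus of the multiciliated cell miRNA miR-449, was 2.24 to 56.4 FPKM against 0.117 to 2.46 (log2 3.91, 5.42 in BB and 2.40 in ++). UPK1B, a uroplakin used as a mesothelial marker, was 43.7 to 174 FPKM against 1.22 to 93.4 and was not called (log2 3.18, adjusted p = 0.0713).

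Among single mRNA transcripts, 51 were called higher (0.163% of 31290 tested) and 22 lower (0.0703%), 0.233% together, and 68 of the 73 had the same sign in both genotypes. Of the 73, 42 were paired with a tested gene sum and 30 with a called one. ABLIM1 XM_012102980.2, of an actin-binding LIM protein, was 4.03, 6.24 and 3.18 FPKM in MF, 4.48, 2.43 and 2.16 in wF, and 0.0116 to 0.606 in the luteal phase. Separate phases were a condition for naming this transcript. Over all tested transcripts the phases were separate for 0.467% in the higher and 1.59% in the lower direction. They were separate here, ML3 was the highest luteal library, and the log2 change of 4.18 (SE 0.43, limma adjusted p = 0.00923) held in all 23 alternatives. Another ABLIM1 transcript, XM_012102969.2, was 1.05 to 3.03 FPKM in the follicular and 0.415 to 15.3 in the luteal phase. It was not called (log2 0.19, limma adjusted p = 0.944). SDF2L1 XM_015101449.1, of an ER chaperone partner, was 22.4 to 77.8 FPKM against 1.94 to 8.0 (log2 3.50, SE 0.31, limma adjusted p = 0.00923), also called in all 23.

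TARBP2 XM_012174155.2, of a Dicer partner, was 0.529 to 2.69 FPKM in the follicular phase and listed at 0 in all 6 luteal libraries, so no fold is given (limma adjusted p = 0.00923). The main TARBP2 transcript, XM_004006291.3, was 5.07 to 11.6 FPKM in the follicular and 5.01 to 11.4 in the luteal phase (log2 0.04). AGR2 XM_004007772.2 was 11.9 to 31.3 FPKM against 0 to 1.88 (log2 4.67, SE 0.61, limma adjusted p = 0.0197), whereas the other AGR2 transcripts were not called. In the lower direction, PTK2B XM_004004157.3, of a calcium-regulated focal adhesion kinase, was listed at 0 in 5 follicular libraries, 0.553 in wF2 and 1.34 to 6.78 in the luteal phase (limma adjusted p = 0.0129). XM_015102672.1, paired with no gene name here, was 16.1 to 28.1 FPKM against 57.1 to 105 (log2 -1.78, SE 0.19, limma adjusted p = 0.00923) and was called in all 23 alternatives. XM_015102673.1 (log2 -1.88) and XM_015102668.1 (log2 -1.97) fell with it without overlap.

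Of the lncRNAs, 7 were called higher (0.0454% of 15431 tested) and 2 lower (0.013%), 0.0583% together, and all 9 had the same sign in both genotypes. LNC_007979 was 5.42, 8.97 and 14.2 FPKM in MF, 8.18, 6.80 and 7.91 in wF, 0.590, 0.474 and 0.102 in ML and 1.98, 1.40 and 4.35 in wL. The phases were separate, with wL3 the nearest luteal library, and the log2 change was 3.03 (SE 0.38, limma adjusted p = 0.00139), 4.38 in BB and 1.68 in ++. It was called in 22 of 23 alternatives. Its first 399 bases were at hand, since the copy of the study's sequence sheet used here is shortened, and 68.2% of them are A or T. Bases 1 to 300 are printed since it is the most significant lncRNA, in lower case with no part marked.
LNC_007979: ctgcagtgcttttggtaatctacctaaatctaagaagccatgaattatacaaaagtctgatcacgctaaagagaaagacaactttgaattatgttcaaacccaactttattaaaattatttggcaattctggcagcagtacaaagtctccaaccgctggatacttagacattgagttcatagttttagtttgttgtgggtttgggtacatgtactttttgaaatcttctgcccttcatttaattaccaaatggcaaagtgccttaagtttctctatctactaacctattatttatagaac

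LNC_008770 was 0.761 to 2.60 FPKM in the follicular phase and 0 to 0.366 in the luteal phase (log2 2.69, SE 0.46, limma adjusted p = 0.0386). LNC_017662 was 0.868 to 2.82 against 0.104 to 0.525 (log2 2.09, SE 0.37, limma adjusted p = 0.0455). Neither overlapped between the phases, which was a condition for naming them, and each missed the threshold in most alternatives (14 of 22 and 15 of 23). Over all tested lncRNAs the phases were separate for 0.266% in the higher and 0.739% in the lower direction. LNC_019150 was listed at 0 in MF1 to MF3, wF1 and wF3, at 1.56 FPKM in wF2 and at 1.76 to 12.9 in the luteal phase (limma adjusted p = 0.00528). LNC_010497, chosen after its values were seen since it fell outside the naming rule, was 0 to 0.344 FPKM against 0.674 to 1.25 (limma adjusted p = 0.0205). Named to fill the list but not called were LNC_005943 (log2 2.31), LNC_008472 (1.52), LNC_012830 (-2.58), LNC_018321 (-1.48), LNC_010377 (-1.28) and LNC_006835 (-1.25), all with separate phases and adjusted p of 0.0846 to 0.261.

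A pooled call did not always stand for both genotypes. BUB1, a kinase of the spindle checkpoint, was 2.20, 3.42 and 3.03 FPKM in MF and listed at 0 in all ML libraries, while wF and wL were at 0 to 0.0583. Its fitted log2 change, which in BB depends on the 0.1 added to 0, was 4.88 in BB and 0.08 in ++ (difference 4.79, SE 0.51, limma adjusted p = 0.0177). KCNK2, a background potassium channel, was 0.486 to 0.635 FPKM in wF and at most 0.0369 in the other 9 libraries (log2 -0.14 in BB and 2.75 in ++). EIF2AK4, a kinase that senses amino acid shortage, was 0.688 to 1.87 in wL and 4.88 to 12.7 in the other 9 (log2 0.28 in BB and 2.96 in ++). Among transcripts, PARD3 XM_015099548.1 changed by 4.17 in BB and 0.05 in ++, and LIG4 XM_012184942.1 was above 0 in wL alone (1.86 to 3.59 FPKM).

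The study tested single transcripts within a genotype or within a phase, so a pooled contrast of gene sums is another measure and comparison. Of the genes it named, MARK3 as a predicted lncRNA target among them, 9 could be tested as gene sums. None of these was called in the pooled contrast. KIF2C, a kinesin that takes microtubules apart at the centromere, came nearest, at 0.398 to 3.07 FPKM against 0 to 1.32 (log2 2.55, SE 0.62, limma adjusted p = 0.0688), and its transcript XM_004001903.3 was called (log2 2.66, adjusted p = 0.0435). VIRMA stood at 54.6 FPKM in ML1 and 45.5 in wF2 and at 2.55 to 9.76 in the other 10 libraries (log2 -0.46). The changes of C2CD5 (0.08), EML4 (-0.18), NES (0.11), MARK3 (-0.07), FGF10 (-0.41), SLC5A1 (0.79) and TLR5 (0.44) gave limma adjusted p of 0.573 to 0.891.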

How the data were processed

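Total RNA of each isthmus sample was sequenced by the authors after poly-A selection and ribosomal RNA removal, and the submitters' processing notes name fastp, HISAT2, StringTie and the build Oar_v3.1, without versions. The deposited values are FPKM per transcript. They hold no counts, so the depth behind a value is unknown and no counting interval is given. The table gives no gene names, and RefSeq transcripts were paired with symbols through a table of the newer assembly ARS-UI_Ramb_v3.0. That paired 15202 of 43674 transcripts (34.8%, holding 67.6% of the RefSeq FPKM), 14336 of them after dropping the version number, and gave 10771 gene sums. A further 596 transcripts took a symbol from the study's annotation. No coordinates were used.

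The libraries are separate ewes, 3 per group. Gene sums, mRNA transcripts and lncRNAs with a mean of at least 0.1 FPKM were fitted on log2(FPKM + 0.1) with limma 3.58.1 (R 4.3.3), with trend, 4 group means and the contrast of follicular against luteal averaged over genotype, and Benjamini-Hochberg adjustment within each kind. Called means an adjusted p under 0.05 and a log2 change of at least 1, the thresholds of the study. List members were counted by adjusted p alone. Single values per library were compared by 2-sided exact permutation of the phase within genotype (400 arrangements, smallest p 0.005). The fit was tested on simulated data.

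Named gene sums were up to 10 per direction with the largest change among called genes of the same sign in both genotypes, with separate phases, at least 1 FPKM in the higher phase and a name not starting with LOC, filled up by the smallest p. The rule for transcripts and lncRNAs was the same with 5 per direction. Up to 4 members of smallest p were taken per list, together with PGR and the genes the study named. Further genes were named after their values were seen. The comparison and the 33 gene lists were chosen with earlier results of these data known, and 7 short lists were added after the values were seen.

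The alternatives were another added value, no filter or a higher one, quantile or equal-sum scaling, an additive model, a replicate block, age or a smooth muscle score as covariate, library weights, leaving out ML2, ML3, wF2 and wL2 together, and leaving out each library in turn. Python 3.11.15 with pandas 2.3.3 was used for tables. Some genes are not reported here.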

Additional observations from a re-analysis of the deposited data

Results flagged for a closer look

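Among 108 sets of 6 libraries of a phase, 12 held a library far from the other 5, where chance alone gives about 1 in 20. TAC3 was 1.37 FPKM in wL3 and 0.00543 to 0.0980 in the other luteal libraries. SLPI was 8.56 in MF2 and 2.32 to 3.79 in the other follicular libraries. GALNT5 was 0.0777 in ML1 and 0.192 to 0.274 in the other luteal libraries, and A2M was 10.4 in ML3 and 3.57 to 5.27 in the others. VIRMA was 54.6 in ML1 and 3.95 to 9.76 in the other luteal libraries.

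Of the transcripts, AGR2 XM_004007772.2 was listed at 0 in ML3 and 0.774 to 1.88 in the other luteal libraries. ABLIM1 XM_012102980.2 was 0.606 in ML3 and 0.0116 to 0.102 in the others, and XM_015093958.1 was 2.55 in wL3 and 4.21 to 5.66 in the others. PTK2B XM_004004157.3 was 0.553 in wF2 and LNC_019150 was 1.56 in wF2, each listed at 0 in the other 5 follicular libraries. LNC_017662 was 0.104 in ML1 and 0.362 to 0.525 in the other luteal libraries, and LNC_008472 was 5.31 in wF2 and 3.14 to 3.55 in the other follicular libraries.

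Of 173 features whose phase change was compared between the genotypes, 4 differed past the threshold in limma's interaction test. The change in BB minus that in ++ was 4.79 for the BUB1 gene sum (SE 0.51, adjusted p = 0.0177) and 4.79 for its transcript XM_012173898.2 (SE 0.57, adjusted p = 0.0398). It was 4.12 for PARD3 XM_015099548.1 (SE 0.49, adjusted p = 0.0398) and 4.61 for LIG4 XM_012184942.1 (SE 0.55, adjusted p = 0.0398). BUB1 and LIG4 have groups listed at 0, so their values depend on the 0.1 added.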

How the results depend on the processing

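Counts of calls moved with the processing, and the causes were not tested. The 74 gene sums became 172 with equal FPKM sums, 39 in the additive model, 15 with age, 132 with the smooth muscle score and 306 with library weights. The 73 mRNA transcripts became 43 with 1 added, 196 with equal sums, 28 in the additive model, 16 with age, 210 with weights and 192 without ML2, ML3, wF2 and wL2. The 9 lncRNAs became 1 with 1 added, 3 with a mean FPKM of at least 1, 3 with equal sums, 3 with age, 4 with the muscle score and 27 with weights. Genes separated in both genotypes (shared direction) went from 372 to 1590 in the same direction and from 77 to 1151 in opposite directions without the 4 libraries, which leaves fewer libraries to separate. The 150 calls within BB became 84 without a filter, 369 with equal sums, 28 with age, 1 with the muscle score and 1218 with weights. The 0 calls within ++ became 1 without a filter, 5 with weights and 4 without the 4 libraries. The 1 interaction became 3 without a filter, 0 with a mean FPKM of at least 1, age or the muscle score, 2 with weights and 15 without the 4 libraries. The 9 cell cycle members became 14 with 1 added, 17 with equal sums, 2 in the additive model, 2 with age, 21 with weights and 17 without the 4 libraries, and the 6 ER members became 0 with age, 16 with weights and 0 without the 4 libraries. Of the 19 named genes called, 7 were called with age and 8 without the 4 libraries. That last setting leaves ML1 as the only ML library, assumed to vary like the others. Leaving out 1 library gave 5 (MF2) to 102 (ML3) gene sums, 24 (wF1) to 121 (ML3) mRNA transcripts, 2 (MF2) to 32 (ML2) lncRNAs, 417 to 614 genes separated in the same and 87 to 399 in opposite directions, 1 (MF2) to 238 (wL2) calls in BB, 0 to 2 in ++, 0 to 7 interactions, 1 (MF2) to 19 (ML3) cell cycle and 0 (MF2) to 12 (MF3) ER members, and 2 (MF2) to 17 (ML3) named genes. It gave differences of 49021 to 59534 in FPKM sum and of 4.18 to 6.11 percentage points in the share of the 10 most abundant transcripts. None of the 33 called features named changed sign under any alternative, whereas 3 of the 17 not called (C2CD5, NES and TLR5) and the medians of 20 of the 33 lists did under at least 1. The replicate numbers were not taken to pair the libraries. Same-numbered libraries correlated at -0.25 to 0.40 (median 0.05), with 7 of 18 above 0.1. Differently numbered libraries correlated at -0.51 to 0.36 (median -0.06), with 12 of 36 above 0.1. With a replicate block 66 gene sums were called (52 of the 74 among them), 19 mRNA transcripts, 14 lncRNAs, 55 calls within BB and 0 interactions. Over 50 named features and their 1144 alternatives, 247 lost the call and 13 gained it.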

Other observations

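The most abundant gene sum, LOC443344, was 18916, 24018 and 30041 FPKM in MF, 20849, 10.2 and 30147 in wF, 1338, 1.01 and 0.961 in ML and 4792, 4.09 and 5031 in wL. The 4 lowest values were those of ML3, ML2, wL2 and wF2, the libraries low in epithelial markers. It was not called (log2 6.50, limma adjusted p = 0.215). The study gives OVGP1, the oviductal glycoprotein gene, as its most abundant mRNA, and no gene sum carried that symbol here. Whether LOC443344 is that gene was not checked.

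Several genes had large pooled changes without passing. FST, the activin-binding follistatin, had a log2 change of -2.22 (limma adjusted p = 0.0661) and IGFBP2, an IGF-binding protein, of 2.54 (limma adjusted p = 0.0808). RARRES1, a secretory cell gene, had a log2 change of 2.50 (limma adjusted p = 0.247). Of POSTN, the matrix protein periostin, the transcript XM_004012109.3 was called (log2 2.22, SE 0.31, limma adjusted p = 0.0308) and its other 7 transcripts were not. These genes were chosen after their values were seen.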
